A study of Homo sapiens with 3 samples.

Results

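The 39 protein-coding HOX genes were followed across 3 RNA sequencing libraries labelled HCT116, which is a line of human colorectal cancer cells. They were chosen by name and biotype from the 58735 genes of the deposited table. This rule uses no measured value, but it was set with earlier results of these data known. The genes fall into 4 clusters, with 11 HOXA, 10 HOXB, 9 HOXC and 9 HOXD genes. The groups were cells overexpressing the mutant ZEB1 K80R, where arginine takes the place of a lysine, cells overexpressing wild-type ZEB1, and cells with an empty vector. All 3 groups carry the treatment label control and grew in the same serum medium, and the labels do not say whether each line was a clone or a pool. Each group had 1 library, so the spread between cultures is unknown and no comparison was tested. Levels are given as FPKM, fragments corrected for the length of the gene and for a library size that the deposited values imply. Intervals in brackets are 95% intervals that cover counting error only.

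HOX genes encode transcription factors that bind DNA through a homeodomain and record the position of a cell along the head-to-tail axis of the embryo. In each cluster the genes stand in the order of the body regions they pattern, so that paralog groups are numbered from 1 at the anterior (head) end to 13 at the posterior (tail) end. Adult cells often keep a HOX pattern of the place they came from, and in the gut the genes of the posterior groups are typical of the hindgut, from which the distal colon is formed. HOX proteins bind DNA together with PBX and MEIS proteins, while Polycomb proteins keep silent genes of the clusters closed and Trithorax proteins such as KMT2A keep active ones open. ZEB1, the factor introduced here, is a zinc-finger repressor of epithelial genes that binds short DNA words of the E-box type.

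The libraries held 13479517 (ZEB1 K80R), 14322537 (wild-type ZEB1) and 14764535 (empty vector) reads on genes. In the same order, 1 read was worth an FPKM of 0.075, 0.072 and 0.063 in a gene of 1 kb. The library sizes that the FPKM imply were 13321300, 13795800 and 15886600, so the FPKM are not scaled to the reads on genes. The sum of FPKM was 303683, 307544 and 223875, and ratios to empty vector carry this scaling. ZEB1 itself stood at 10.3 FPKM with ZEB1 K80R, 9.83 with wild-type ZEB1 and 5.66 with empty vector. The empty vector library stood apart, with 350 genes at exactly 1 read where the ZEB1 K80R library had 2902 and the wild-type ZEB1 library 2705, and with 1.29% of reads on mitochondrial genes against 9.75% and 7.77%. The part of these features in the differences from the empty vector library was not tested. Of 15 colon epithelial markers, 10 had no read in any library, among them EPCAM, CDH1, VIL1 and the caudal homeobox genes CDX1 and CDX2, and 1 reached a mean FPKM of 1. Of 9 fibroblast markers 2 reached that mean, of 5 neuronal and glial markers 2, and of 4 endothelial and 5 leukocyte markers none. The summed FPKM of the lists was 2.30 to 3.19 for colon epithelium, 2.43 to 3.39 for fibroblasts, 0.130 to 0.610 for endothelium, 0.233 to 0.271 for leukocytes and 46.7 to 73.4 for neurons and glia, nearly all of it the neurofilament gene NEFL. Most defining colon markers were thus at 0, which goes against the label, and the libraries are named by their labels only.

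RefSeq promoter sequences (GRCh38.p14) matched 20 of the 39 genes, in 26 distinct windows of 250 bases before a start that RefSeq gives. Some of these starts lie within the gene spans of the deposited table, among them those of HOXA7, HOXD4 and HOXA9, so that their windows are not upstream of every transcript. The E-box words CAGGTG and CAGGTA, searched on both strands, lay in 2 of the 26 windows (7.69%) and in 23.8% of all 35116 promoters of the same length. Several of the 26 windows were alternative starts of the single gene HOXA3. A window shared by HOXC4 and HOXC5 was counted once, whereas repeated windows were not removed from all promoters. These words are bound by ZEB1 and also by other factors such as SNAI1, and a match marks letters only. The 2 windows were those of HOXA7 and HOXD4, genes with no read in any of the libraries. They are shown first below with the E-box in capitals, followed by 3 windows of genes described under the comparisons, HOXC4 with a higher level and HOXD8 and HOXA9 with lower levels beside overexpressed ZEB1 K80R than with empty vector, none of which held either word. The window printed for HOXC4 is also that of HOXC5, which had 3, 5 and 4 reads with ZEB1 K80R, wild-type ZEB1 and empty vector.
HOXA7, chr7:27156676-27156925, minus strand: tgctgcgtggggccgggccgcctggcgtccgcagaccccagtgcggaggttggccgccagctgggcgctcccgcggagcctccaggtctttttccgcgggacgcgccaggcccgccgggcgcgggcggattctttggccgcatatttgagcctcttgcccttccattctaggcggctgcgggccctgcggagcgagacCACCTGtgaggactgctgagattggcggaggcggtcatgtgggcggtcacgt
HOXD4, chr2:176151300-176151549, plus strand: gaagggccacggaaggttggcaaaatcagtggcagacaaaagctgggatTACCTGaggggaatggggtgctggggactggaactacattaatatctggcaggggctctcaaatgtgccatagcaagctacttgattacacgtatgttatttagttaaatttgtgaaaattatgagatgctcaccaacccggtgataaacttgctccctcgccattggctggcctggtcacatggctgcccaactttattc
HOXC4, chr12:54016638-54016887, plus strand: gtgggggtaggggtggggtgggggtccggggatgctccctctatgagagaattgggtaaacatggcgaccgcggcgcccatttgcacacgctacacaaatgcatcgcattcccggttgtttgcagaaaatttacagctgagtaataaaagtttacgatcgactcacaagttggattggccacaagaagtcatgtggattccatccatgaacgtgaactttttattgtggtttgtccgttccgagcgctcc
HOXD8, chr2:176129455-176129704, plus strand: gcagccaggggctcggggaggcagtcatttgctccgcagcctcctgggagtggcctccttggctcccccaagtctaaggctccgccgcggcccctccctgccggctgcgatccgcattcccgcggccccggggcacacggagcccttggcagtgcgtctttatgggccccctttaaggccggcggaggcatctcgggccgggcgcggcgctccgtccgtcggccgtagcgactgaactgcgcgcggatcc
HOXA9, chr7:27165538-27165787, minus strand: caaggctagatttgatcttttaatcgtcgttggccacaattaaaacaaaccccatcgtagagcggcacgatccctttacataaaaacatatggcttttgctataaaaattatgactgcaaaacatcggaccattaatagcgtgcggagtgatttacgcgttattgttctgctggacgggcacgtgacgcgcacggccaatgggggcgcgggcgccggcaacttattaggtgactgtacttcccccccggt

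The windows of the HOX genes held a median of 19.5 CpG dinucleotides and ranged from 0 to 40, against a median of 11 over all promoters, while the median GC content was 58.8% against 58.0%. The 6 genes with a promoter and a mean FPKM of at least 1 had windows with 14 to 28 CpG, and the 5 genes with a promoter and no reads had windows with 4 to 31, so the ranges overlapped.

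The clusters also hold microRNA genes. The mature microRNAs miR-196a-5p, from MIR196A1 in HOXB and MIR196A2 in HOXC, and miR-196b-5p, from MIR196B in HOXA, share a seed and are known to cut HOXB8 mRNA, and miR-10a-5p comes from the HOXB cluster. They are shown because the reads on their precursors are given with the noncoding genes, with the seed (bases 2 to 8) in capitals, from RefSeq (GRCh38.p14).
miR-196a-5p, chr17:48632532-48632553, minus strand: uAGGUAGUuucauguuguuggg
miR-196b-5p, chr7:27169528-27169549, minus strand: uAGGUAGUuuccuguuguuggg
miR-10a-5p, chr17:48579904-48579926, minus strand: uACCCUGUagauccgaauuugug

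HOX genes were read from all 4 clusters, but at moderate levels and unevenly by position. Of the 39 genes, 31 had reads with ZEB1 K80R, 33 with wild-type ZEB1 and 28 with empty vector. A mean FPKM of at least 1 over the 3 libraries was reached by 21 genes, another 12 had reads below it, and 6 had none in any library. The 21 genes were 8 of 10 in HOXB, 6 of 9 in HOXC, 4 of 9 in HOXD and 3 of 11 in HOXA. HOXC4 was the lowest of them, with a mean of 1.18, and HOXA4 lay just outside with 0.979. The highest HOX gene of the mean, HOXB9, stood at the 84.7th, 84.0th and 77.0th percentile of protein-coding genes that pass this mean, in the order ZEB1 K80R, wild-type ZEB1 and empty vector. Levels are of bulk cultures, in which fewer cells with a gene and less RNA per cell cannot be told apart.

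**Figure D1:**
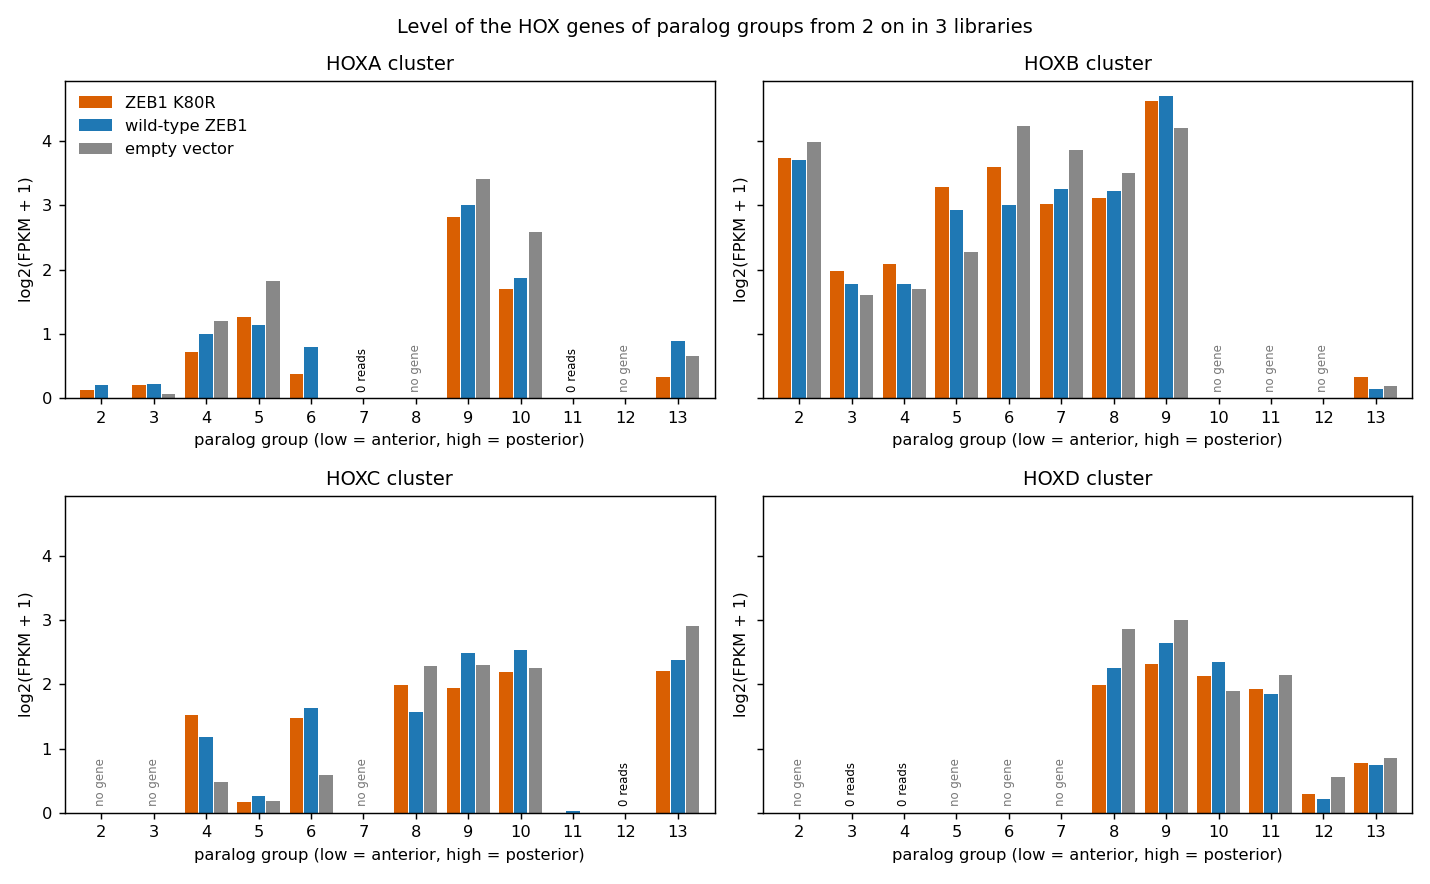
Bars give log2(FPKM + 1) of the HOX genes in the ZEB1 K80R, wild-type ZEB1 and empty vector libraries, 1 library each, by cluster and by paralog group from 2 on along the horizontal axis. HOXB has a run of genes from group 2 to group 9, HOXD has reads only from group 8 on, and group 9 holds the highest gene of HOXA and HOXD in each library and of HOXB in both overexpression libraries.

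The HOXB cluster (chromosome 17, 48528526 to 48729178, GRCh38) held most of the HOX signal. Its genes summed to 77.0 FPKM with ZEB1 K80R, 72.6 with wild-type ZEB1 and 82.1 with empty vector, which was 64.2%, 59.2% and 58.2% of the sum over all HOX genes. Every gene from HOXB2 to HOXB9 had an FPKM above 2 in each library, while both ends of the cluster were nearly silent. HOXB1, at the anterior end, had 0, 5 and 0 reads, and HOXB13, at the posterior end and separated from HOXB9 by the long noncoding gene LINC02086, had 12, 5 and 8 reads. PRAC1, a neighbour of HOXB13 known from prostate and distal colon, had no reads.

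HOXB9 (ENSG00000170689, 48621159 to 48626356, minus strand) was at 23.7 FPKM with ZEB1 K80R, 25.0 with wild-type ZEB1 and 17.4 with empty vector, and was the highest HOX gene of both overexpression libraries. HOXB6 (ENSG00000108511, 48595751 to 48604992, minus strand) was at 11.1 FPKM in ZEB1 K80R, 7.04 in wild-type ZEB1 and 17.7 in empty vector, where it ranked first. HOXB2, an anterior gene known for patterning the hindbrain, was at 12.3, 12.1 and 14.8 in the same order and lay in the top 3 of every library. HOXB7 was at 7.07, 8.54 and 13.5, HOXB8 at 7.69, 8.31 and 10.3, and HOXB5 at 8.72, 6.57 and 3.82. HOXB4, known as a regulator of blood stem cells, and HOXB3 lay between 2.03 and 3.26 in all libraries.

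The HOXA cluster (chromosome 7) summed to 12.1, 14.3 and 19.1 FPKM in ZEB1 K80R, wild-type ZEB1 and empty vector. HOXA9, best known for its role in leukaemia, was its highest gene, at 6.07 FPKM in ZEB1 K80R, 7.01 in wild-type ZEB1 and 9.64 in empty vector. HOXA10 followed at 2.25, 2.64 and 5.01, and HOXA5 at 1.41, 1.19 and 2.54. HOXA7 and HOXA11, which lie on either side of HOXA9 and HOXA10, had no reads in any library. HOXA13, a hindgut gene, was below 1 FPKM throughout, with 17, 60 and 47 reads. HOXA4 had 15, 24 and 36 reads, HOXA3 9, 10 and 3, and HOXA2 3, 5 and 0.

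The HOXC cluster (chromosome 12, 53938765 to 54056030) summed to 16.8, 19.2 and 19.1 FPKM in ZEB1 K80R, wild-type ZEB1 and empty vector. HOXC13, a gene of the most posterior group that is known for its role in hair and nail, was at 3.62 FPKM in ZEB1 K80R, 4.22 in wild-type ZEB1 and 6.49 in empty vector. HOXC10 stood at 3.54, 4.76 and 3.78, HOXC9 at 2.86, 4.62 and 3.94 and HOXC8 at 2.98, 1.96 and 3.87. HOXC6 and HOXC4 reached 1 FPKM in the overexpression libraries only. The genes between HOXC10 and HOXC13 were empty, with 1 read on HOXC11 in the wild-type ZEB1 library and none on HOXC12, and HOXC5 had 3, 5 and 4 reads.

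The HOXD cluster (chromosome 2, 176092891 to 176190907) summed to 14.1, 16.6 and 20.7 FPKM in ZEB1 K80R, wild-type ZEB1 and empty vector. Its posterior side was read and its anterior side was not. HOXD9 was at 3.97 FPKM in ZEB1 K80R, 5.27 in wild-type ZEB1 and 7.00 in empty vector, and HOXD8 at 2.97, 3.75 and 6.27. HOXD10 and HOXD11 lay between 2.61 and 4.09 in all libraries. HOXD13, which patterns digits and the hindgut, was at 0.704, 0.680 and 0.815, and HOXD12 had at most 10 reads. HOXD1, HOXD3 and HOXD4 had no reads.

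By paralog group, group 9 had the highest sum in each library. All 4 of its members reached a mean FPKM of 1, as did all 3 members of group 8 and all 3 of group 10. The members of group 9 summed to 36.6 FPKM in ZEB1 K80R, 41.9 in wild-type ZEB1 and 38.0 in empty vector. This was 30.5%, 34.1% and 27.0% of the HOX sum. Group 13 summed to 4.84, 5.86 and 8.04, most of it HOXC13. The paralog group averaged with FPKM as the weight was 7.71, 8.14 and 8.50 in HOXA, 6.29, 6.45 and 6.17 in HOXB, 8.99, 9.32 and 10.1 in HOXC and 9.68, 9.53 and 9.38 in HOXD, in the order ZEB1 K80R, wild-type ZEB1 and empty vector. The HOXB signal was thus centred further towards the anterior end than that of the other clusters in each library.

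Against the empty vector library, the ZEB1 K80R library held less HOXA and HOXD signal, and single HOXB and HOXC genes stood on both sides. The ratio of the cluster sums, ZEB1 K80R over empty vector, was 0.633 (0.564 to 0.711) for HOXA, 0.680 (0.603 to 0.767) for HOXD, 0.879 (0.781 to 0.988) for HOXC and 0.938 (0.889 to 0.990) for HOXB. Without HOXC13 the HOXC ratio was 1.04. Of the 21 genes, 3 were at least 1.5-fold higher, 7 at least 1.5-fold lower and 11 within that range, as ratios of FPKM + 1. Over the 10372 protein-coding genes that pass the filter, 9.68% were higher and 10.3% lower by the same rule, so that the share of higher HOX genes, 14.3%, lay nearer to that of all genes than the share of lower ones, 33.3%. The median difference of log2(FPKM + 1) was −0.29 over the 21 HOX genes and 0.01 over all these genes. Of the 21 ratios, 16 had a counting interval without 1. The share of all protein-coding genes with such an interval was not determined, so this count is not read as a trait of HOX genes. By a second rule, a ratio of FPKM of at least 1.5-fold with an interval that excludes 1, 5 of the 31 HOX genes with reads in ZEB1 K80R or empty vector were higher, where 16.4% of protein-coding genes with reads were, and 10 were lower, where 13.0% were.

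The 7 lower genes were HOXA9, HOXA10, HOXB6, HOXB7, HOXC13, HOXD8 and HOXD9. HOXA10 had the lowest ratio of them, 0.449 (0.357 to 0.560), from 111 reads in ZEB1 K80R and 295 in empty vector. HOXD8 followed at 0.473 (0.373 to 0.596), HOXB7 at 0.525 (0.429 to 0.641) and HOXC13 at 0.558 (0.444 to 0.698). HOXD9 was at 0.568 (0.442 to 0.724) and HOXA9 at 0.630 (0.537 to 0.737). HOXB6, with 385 reads in ZEB1 K80R and 734 in empty vector, had a ratio of 0.626 (0.552 to 0.709).

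The 3 higher genes were HOXC4, HOXC6 and HOXB5. HOXB5 was at 8.72 FPKM in ZEB1 K80R against 3.82 in empty vector, a ratio of 2.28 (1.83 to 2.86), while its neighbour HOXB6 lay lower. HOXC4 was at 1.87 against 0.393, from 68 and 17 reads, a ratio of 4.77 (2.77 to 8.66). HOXC6 was at 1.78 against 0.498, from 84 and 28 reads, a ratio of 3.58 (2.31 to 5.70). HOXC4 and HOXC6 passed the filter on low values through the overexpression libraries alone, so that they had to differ. They also share 484 exon bases, and reads there cannot be assigned to one of them.

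The wild-type ZEB1 library, compared with the same empty vector library, had cluster sum ratios of 0.747 (0.670 to 0.833) for HOXA, 0.801 (0.715 to 0.898) for HOXD, 0.885 (0.838 to 0.935) for HOXB and 1.00 (0.896 to 1.12) for HOXC. By the ratio of FPKM + 1, 3 of the 21 genes were higher, 6 lower and 12 within 1.5-fold, where 12.0% of all protein-coding genes tested were higher and 7.63% lower. The median difference was −0.29 on the log2 scale over the HOX genes and 0.02 over all genes. HOXB6 had the lowest ratio, 0.397 (0.343 to 0.459), from 253 reads in wild-type ZEB1 and 734 in empty vector. By the second rule 8 of the 33 HOX genes with reads in wild-type ZEB1 or empty vector were higher, where 17.5% of protein-coding genes were, and 7 were lower, where 12.3% were. The others of the 6 lower genes were HOXA5, at 0.467 (0.290 to 0.735), HOXC8, at 0.506 (0.357 to 0.710), HOXA10, at 0.527 (0.427 to 0.648), HOXD8, at 0.598 (0.482 to 0.738), and HOXB7, at 0.634 (0.525 to 0.763). The higher genes were HOXC6, at 4.24 (2.77 to 6.68), HOXC4, at 3.25 (1.84 to 6.03), and HOXB5, at 1.72 (1.36 to 2.17). Of these, HOXC4 and HOXC6 passed the filter through the overexpression libraries alone, so that they had to differ. Both comparisons rest on the same empty vector library, so a likeness between them is no independent support.

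**Figure D2:**
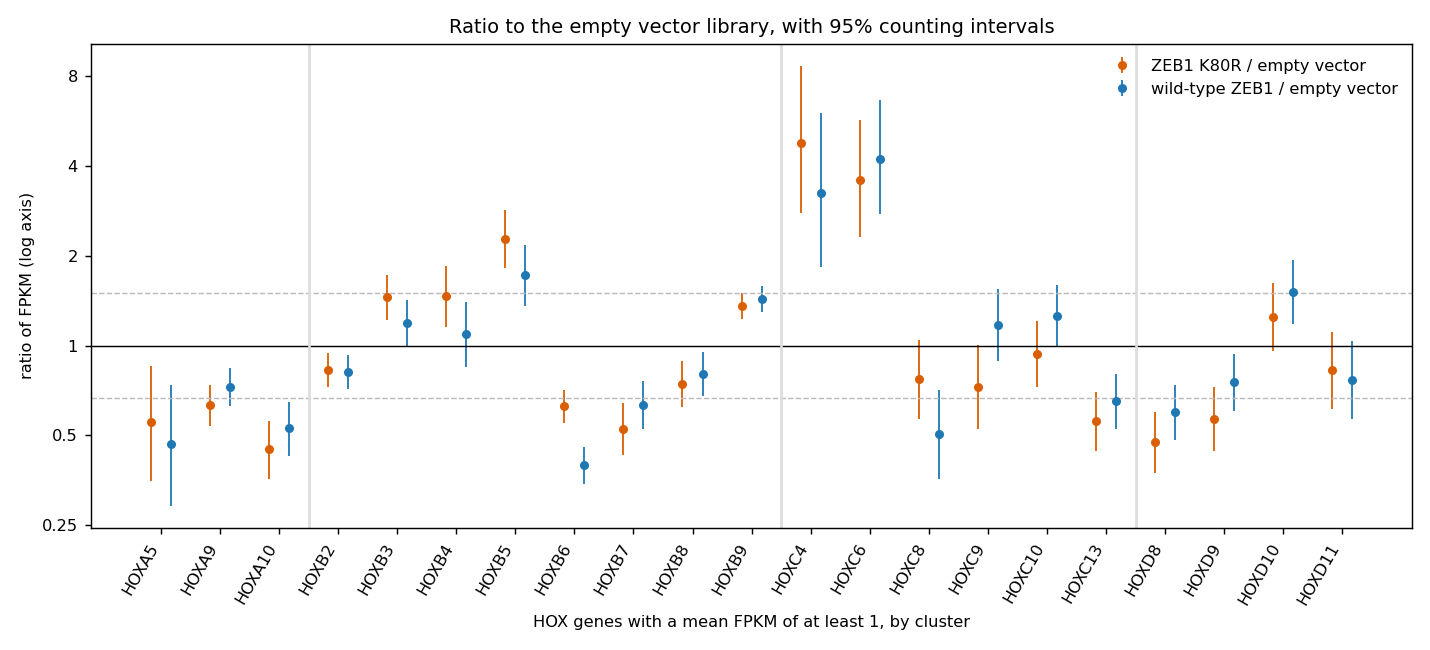
Points give the ratio of FPKM to the empty vector library on a log axis for the 21 HOX genes that pass the filter, for ZEB1 K80R and wild-type ZEB1, with 95% counting intervals as vertical lines and dashed lines at 1.5-fold. HOXC4, HOXC6 and HOXB5 stand above 1 with both, and HOXA10, HOXB6, HOXB7 and HOXD8 below it. HOXC4 and HOXC6 passed the filter through the overexpression libraries alone.

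Differences from empty vector depend on how the libraries are scaled. At a common sum of FPKM all genes shift by −0.44 on the log2 scale for ZEB1 K80R and by −0.46 for wild-type ZEB1. On that scale HOXB9 differed from empty vector by 0.00 and 0.06 in ZEB1 K80R and wild-type ZEB1, where the deposited values gave 0.42 and 0.49. HOXB5, HOXC4 and HOXC6 stayed above 0, at 0.64, 0.87 and 0.70 for ZEB1 K80R and at 0.27, 0.53 and 0.85 for wild-type ZEB1. HOXC4 and HOXC6 had passed the filter through the overexpression libraries alone, so that their values above 0 are no support. The genes given above as lower lay further below 0.

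Some HOX genes with few reads were seen only beside overexpressed ZEB1. HOXA6 had 5 reads with ZEB1 K80R, 13 with wild-type ZEB1 and none with empty vector. The empty vector library also had the fewest genes with reads of any kind, 18928 against 24325 and 23457 in the ZEB1 K80R and wild-type ZEB1 libraries, and the part of this in the zeros was not tested.

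ZEB1 K80R and wild-type ZEB1 differed less from each other. By the ratio of FPKM + 1, 1 of the 21 genes was at least 1.5-fold higher in ZEB1 K80R, none was lower by that much and 20 lay within the range, where 1.33% of all protein-coding genes tested were higher and 3.87% lower. The gene was HOXB6, at 11.1 FPKM in ZEB1 K80R against 7.04 in wild-type ZEB1, a ratio of 1.58 (1.34 to 1.85). By the second rule, HOXC8, at 1.52 (1.05 to 2.22), was also higher. HOXC9, at 0.619 (0.447 to 0.852), and HOXA13, at 0.293 (0.161 to 0.510) from 17 and 60 reads, were lower by that rule, which called 5.0% of all protein-coding genes with reads higher and 5.74% lower. For 13 of the 21 genes the interval included 1, which does not show that they were alike.

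By position, the differences between ZEB1 K80R and wild-type ZEB1 were small and uneven. The division into groups 1 to 3, 4 to 8 and 9 to 13 was made with earlier results of these data known. Counts on either side of it are therefore no independent support for a pattern by position. Of the 9 genes of groups 9 to 13, 8 had a lower level in ZEB1 K80R than in wild-type ZEB1 and HOXD11 a higher one, with a median difference of −0.18 on the log2 scale. Among these 9, the counting interval excluded 1 for HOXC9, HOXC10 and HOXD9 only. Over all protein-coding genes tested 54.5% were lower, with a median of −0.03. Of the 10 genes of groups 4 to 8, 6 had a higher level in ZEB1 K80R and 4 a lower one (HOXB7, HOXB8, HOXC6 and HOXD8), with a median of 0.22, and both genes of groups 2 and 3, HOXB2 and HOXB3, were higher. The sum over groups 9 to 13 was 53.6 FPKM in ZEB1 K80R against 62.0 in wild-type ZEB1, a ratio of 0.865 (0.811 to 0.921), and the sum over groups 4 to 8 was 49.9 against 45.1, a ratio of 1.11 (1.03 to 1.19). The ratio was 1.01 for group 2, 1.2 for group 3, 1.23 for group 4, 1.29 for group 5, 1.33 for group 6, 0.828 for group 7, 0.973 for group 8, 0.874 for group 9, 0.798 for group 10, 1.07 for group 11, 1.38 for group 12 and 0.826 for group 13. The interval included 1 for groups 2, 7, 8, 11, 12 and 13. The ratios of groups 3 to 6 rest mainly on neighbouring HOXB genes, with HOXB3 at 2.95 against 2.42 FPKM, HOXB4 at 3.26 against 2.43, HOXB5 at 8.72 against 6.57 and HOXB6 as above. The cluster sums had ratios of 0.848 (0.746 to 0.963) for HOXA, 0.848 (0.745 to 0.966) for HOXD, 0.876 (0.777 to 0.988) for HOXC and 1.06 (1.00 to 1.12) for HOXB.

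**Figure D3:**
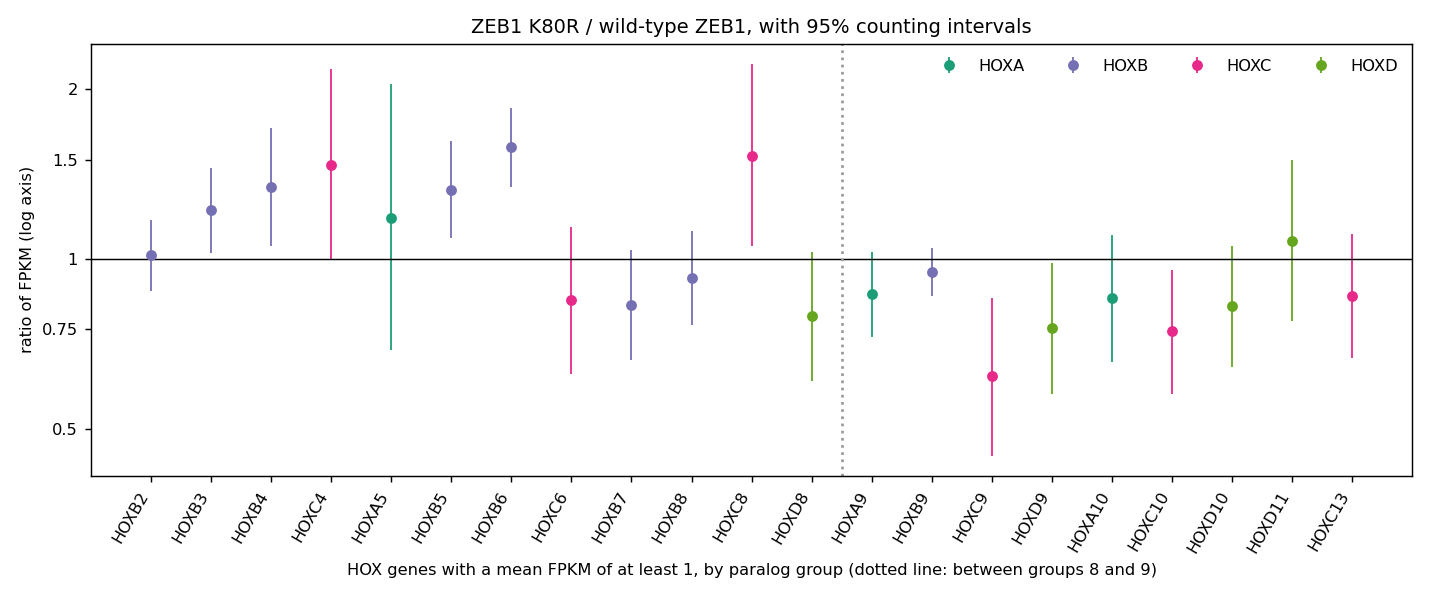
Points give the ratio of FPKM of ZEB1 K80R over wild-type ZEB1 on a log axis for the 21 HOX genes, in the order of paralog groups and coloured by cluster, with 95% counting intervals. Right of the dotted line, in groups 9 to 13, 8 of 9 genes lie below 1, and HOXB3 to HOXB6 lie above it. Of those 8, only HOXC9, HOXC10 and HOXD9 have an interval without 1. The line was placed with earlier results of these data known.

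Some noncoding genes of the clusters were higher in ZEB1 K80R than in wild-type ZEB1, and those named here were chosen after their values were seen. The spans of the 4 clusters held 62 other genes of the table, of which 24 had reads and 10 reached a mean FPKM of 1. HOXB-AS3, which runs antisense across the stretch from HOXB3 to HOXB6, was at 7.10 FPKM in ZEB1 K80R, 2.24 in wild-type ZEB1 and 4.28 in empty vector. Its ratio of ZEB1 K80R to wild-type ZEB1 was 3.18 (2.36 to 4.34), from 181 and 59 reads. HOXB-AS4, beyond HOXB9 on the side of HOXB13, stood at 4.49, 1.52 and 2.45, with a ratio of 2.96 (1.58 to 5.89), and the intergenic AC012531.1 of the HOXC cluster at 1.62, 0.460 and 0.611, with a ratio of 3.53 (2.03 to 6.47). Others did not share this, with a ratio of 1.04 for HOXB-AS1, 0.621 (0.240 to 1.52) for HOXC-AS1, and 0.173 (0.019 to 0.775) for HOXA-AS2, from 2 reads in ZEB1 K80R and 12 in wild-type ZEB1. HOXB-AS3 was highest in ZEB1 K80R and lowest in wild-type ZEB1, and the 4 HOXB genes along it were also higher in ZEB1 K80R than in wild-type ZEB1. HOXB-AS3 shares 425 exon bases with HOXB6, 77 with HOXB3 and 73 with HOXB5, and since no source used here gives the strand setting of the counting, reads of a gene and its antisense partner cannot be told apart there.

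**Figure D4:**
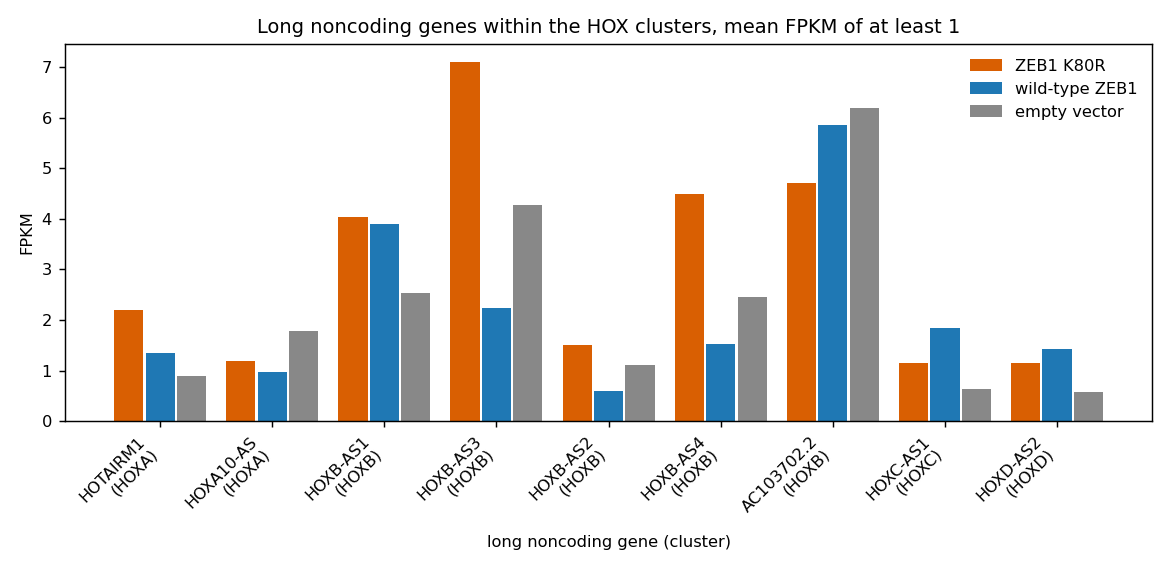
Bars give the FPKM of the 9 long noncoding genes within the HOX clusters with a mean FPKM of at least 1, in the ZEB1 K80R, wild-type ZEB1 and empty vector libraries, 1 library each. HOXB-AS3 and HOXB-AS4 are highest in ZEB1 K80R, at 7.10 and 4.49.

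HOTAIRM1, a noncoding gene of the HOXA cluster, was at 2.21 FPKM in ZEB1 K80R, 1.36 in wild-type ZEB1 and 0.884 in empty vector. HOTAIR, a noncoding RNA of the HOXC cluster known to bind Polycomb proteins, had 4, 0 and 11 reads, and HOTTIP, at the posterior end of HOXA, had 1, 0 and 0. Of the 8 microRNA genes in the clusters, MIR196A1, the source of miR-196a-5p shown above, had 1, 3 and 14 reads, MIR615 had 1, 0 and 0, and the other six had none. Libraries of mRNA are not made to capture mature microRNAs. MIR196A1 lies within the span of HOXB7.

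The nearest protein-coding genes outside the clusters ranged from no reads to levels above those of all HOX genes. The highest was HNRNPA3, 1022 kb beyond HOXD1, at 78.9 FPKM in ZEB1 K80R, 80.4 in wild-type ZEB1 and 110 in empty vector. EVX1, a homeobox gene 42.6 kb beyond HOXA13, had no reads, and EVX2, 8.98 kb beyond HOXD13, had an FPKM of 0.018, 0.017 and 0. SKAP2, 97.8 kb beyond the anterior end of HOXA, was at 7.59, 6.97 and 7.50 FPKM in ZEB1 K80R, wild-type ZEB1 and empty vector, and MTX2, 78.5 kb beyond HOXD1, at 22.6, 28.3 and 28.9. SKAP1 and TTLL6, which flank HOXB, stayed below 0.2 FPKM. CALCOCO1, on the HOXC13 side of HOXC, had 545, 606 and 398 reads, and SMUG1, on the other side, was at 5.73, 6.75 and 7.87 FPKM.

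For the genes that act with HOX proteins or on HOX genes, higher, lower and 1.5-fold refer to the ratio of FPKM + 1, which for low genes is nearer to 1 than the ratio of FPKM. Of all protein-coding genes tested, 9.68% were higher and 10.3% lower for ZEB1 K80R against empty vector, with a median of 0.01. For wild-type ZEB1 against empty vector, 12.0% were higher and 7.63% lower, with a median of 0.02. Between ZEB1 K80R and wild-type ZEB1, 1.33% were higher and 3.87% lower, with a median of −0.03. The counts and medians of the lists stand beside these values. Among the cofactors, PBX2 was the most abundant. It stood at 12.9 FPKM in ZEB1 K80R, 15.0 in wild-type ZEB1 and 6.90 in empty vector, and was the only 1 of 5 measured PBX, MEIS and PKNOX genes to differ by 1.5-fold from empty vector in either comparison. PBX3 was at 3.63, 3.28 and 2.21, with a ratio of FPKM of 1.64 (1.33 to 2.03) for ZEB1 K80R over empty vector, and MEIS1 was below 0.2 FPKM in all libraries. None of these genes differed by 1.5-fold between ZEB1 K80R and wild-type ZEB1. The median difference of the 5 on the log2 scale was 0.19 for ZEB1 K80R and 0.34 for wild-type ZEB1 against empty vector.

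The Polycomb list had 25 of 27 genes measured. In ZEB1 K80R 3 of them were higher and 6 lower than in empty vector, with a median difference of −0.16, and in wild-type ZEB1 2 were higher and 3 lower, with a median of −0.18. PCGF2, a subunit of the complex that places ubiquitin on histone H2A, was at 13.6, 15.2 and 6.27 FPKM, and its relative BMI1 at 10.8, 9.97 and 16.8. EED, a core subunit of the histone H3 methyltransferase complex, was at 3.46, 3.73 and 5.78, while the enzyme EZH2 stood at 9.31, 7.66 and 10.1. Between ZEB1 K80R and wild-type ZEB1 the 1 gene past 1.5-fold was PHF1, at 10.4 against 18.1.

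All 16 Trithorax and COMPASS genes were measured. The H3K27 demethylase KDM6B was at 5.87 FPKM in ZEB1 K80R, 9.02 in wild-type ZEB1 and 2.89 in empty vector, and ASH1L at 7.02, 4.25 and 3.40. KDM6B and ASH1L were the 2 higher genes of ZEB1 K80R against empty vector, KDM6B the 1 higher gene of wild-type ZEB1, and none was lower, with medians of 0.11 and 0.06. Between ZEB1 K80R and wild-type ZEB1, ASH1L and KMT2D, at 11.1 against 6.40, were higher, and none was lower by that ratio, while KDM6B had a ratio of FPKM of 0.651 (0.585 to 0.724). The insulator and looping genes, CTCF among them at 7.64, 5.83 and 7.05, had 1 of 8 past 1.5-fold, STAG1, which was lower in wild-type ZEB1 at 5.56 against 9.29 in empty vector. Their medians against empty vector were −0.03 for ZEB1 K80R and −0.24 for wild-type ZEB1.

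Retinoic acid induces anterior HOX genes in many cells. Of 18 genes of this pathway 6 were measured, and the degrading enzymes CYP26A1 and CYP26C1 had no reads. The receptor RARA was at 8.43 FPKM in ZEB1 K80R, 14.2 in wild-type ZEB1 and 8.05 in empty vector, and RARG at 3.70, 4.81 and 2.14. Both were at least 1.5-fold higher in wild-type ZEB1 than in empty vector, none of the 6 was past 1.5-fold for ZEB1 K80R against empty vector by that ratio, though the ratio of FPKM of RARG was 1.73 (1.42 to 2.12), and RARA and CRABP2, at 1.64 against 3.03, were lower in ZEB1 K80R than in wild-type ZEB1. The medians of the 6 were −0.03 for ZEB1 K80R and 0.38 for wild-type ZEB1 against empty vector, and −0.25 between ZEB1 K80R and wild-type ZEB1.

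Other positional factors placed beside the HOX pattern were mostly silent. Of 34 homeobox and T-box genes, 9 were measured and 9 had no reads, among them EN1, EMX2, OTX2 and TBX4. PITX1, known for hindlimb identity, had the highest mean, at 10.5 FPKM in ZEB1 K80R, 11.9 in wild-type ZEB1 and 30.6 in empty vector. TBX3 was at 9.03, 14.5 and 5.92, and lower in ZEB1 K80R than in wild-type ZEB1 by more than 1.5-fold. The medians of the 9 against empty vector were −0.25 for ZEB1 K80R and −0.33 for wild-type ZEB1. Of 15 ParaHox and gut genes 4 were measured, among them FOXF2, GATA6 and FOXA2, and 7 had no reads, including CDX1, CDX2, CDX4 and PDX1.

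Zeros and low values have to be read with the gene models. In GENCODE release 29 the exon length of all 39 genes equalled the length in the deposited table. Only 14 of the 39 genes shared no exon base with another gene on either strand, and reads in shared bases may have been left out of the counts. Of the 6 genes without reads, HOXC12 shared none of its exon bases. With both strands counted, HOXA11 had 68.9% of its exon bases to itself, HOXD1 41.9%, HOXA7 37.5%, HOXD3 25.9% and HOXD4 19.5%. Against genes of the same strand only, the shares were 100% for HOXA11 and HOXA7, 97.0% for HOXD1, 37.8% for HOXD3 and 19.5% for HOXD4. The strand setting of the counting is not given. HOXD4 thus had 286 bases in which a read could be assigned to it alone, and HOXA7 had 904 with both strands counted. Counted per unshared exon length, HOXB held 62.7%, 56.9% and 57.3% of the HOX signal in ZEB1 K80R, wild-type ZEB1 and empty vector.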

How the data were processed

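RNA was sequenced in 3 libraries, 1 per group, grouped by the genotype in the labels. Per the labels' protocols, libraries were made from total RNA with a SMARTER mRNA kit. Build hg38 and the tools featureCounts 1.5.0-p3, CASAVA and DESeq2 1.20.0 are named without roles, per the submitters' processing notes. No aligner, annotation or strand setting is given in the sources used here. Values deposited by the authors were FPKM per gene, with coordinates and gene lengths, which for the HOX genes equal those of GENCODE 29 exons. FPKM times gene length was a whole multiple of 1 step for 100% of genes above 0 in each library (tolerance 0.05 reads), which gave the reads. These served for counting intervals only (exact conditional, scipy 1.17.1; for cluster sums, a Poisson approximation on the log scale), since reads copied from one molecule are not independent and there were no replicates to test.

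Genes averaging an FPKM of at least 1 were compared by the ratio of FPKM + 1, a pseudocount that understates differences of low genes, and called at 1.5-fold. The rule was tested on simulated data. All HOX genes were counted, a few items are not reported here, and each that passed this filter was named. From other lists, the most abundant members and those past 1.5-fold could be named, and other genes named for having few or no reads or as neighbours were chosen after their values were seen. The HOX genes, the lists and the division into paralog groups 1 to 3, 4 to 8 and 9 to 13 were chosen with earlier results of these data known. Alternatives were other pseudocounts, filters, scalings, a call rule by counting interval, and sums without the highest gene.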

Additional observations from a re-analysis of the deposited data

How the results depend on the processing

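The count of HOX genes called depended on the filter, the scaling and the rule. For ZEB1 K80R against empty vector, 3 higher and 7 lower genes became 1 and 4 with a mean FPKM of at least 5, 5 higher by the counting interval rule, and 13 lower at a common sum of FPKM. For wild-type ZEB1 against empty vector, 3 higher genes became 5 with a mean FPKM of at least 0.1 or no filter, 1 with a mean of at least 5, 1 at a common sum and 8 by the interval rule, and 6 lower genes became 2 with a mean of at least 5 and 12 at a common sum. For ZEB1 K80R against wild-type ZEB1, 1 higher gene became 2 by the interval rule, and 0 lower genes became 1 with a pseudocount of 0.1 and 2 by the interval rule. At a common sum the cluster sum ratios to empty vector were 0.467 (HOXA), 0.692 (HOXB), 0.648 (HOXC) and 0.501 (HOXD) for ZEB1 K80R and 0.544, 0.644, 0.730 and 0.583 for wild-type ZEB1. Without the highest member, the ratio of HOXC reversed to 1.04 for ZEB1 K80R and was 1.18 for wild-type ZEB1, and that of HOXB was 0.825 and 0.737. Rescaling by the median ratio kept all 18 of these counts and sums within their limits. It shifts all genes by only −0.002 (ZEB1 K80R) and −0.03 (wild-type ZEB1) against empty vector on the log2 scale. Between ZEB1 K80R and wild-type ZEB1 the shift is 0.03. The deposited values thus stood near that scale already, so this setting could change little and is no support. The share of HOXB per unshared exon length, an alternative chosen after seeing the data, was 62.7%, 56.9% and 57.3% in ZEB1 K80R, wild-type ZEB1 and empty vector. The cause of these changes was not tested, beyond the shift of all genes that the common sum makes by construction. No paired analysis was possible because each group had 1 library and the labels give no replicate numbers. Genes with few reads, such as HOXA6 and HOXA13, are limited by depth, and an FPKM of 0.094 to 0.113 corresponds to 3 reads on a gene of 2 kb.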
